A study of Mus musculus with 20 samples.

Results

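The microtubule motor genes of NSC-34 cells were followed with and without induced HuD, through total RNA, polysomal RNA, mRNA 3′ ends and HuD crosslinking sites. The members were chosen by name, as genes of the RNA-Seq and POL-Seq count table whose symbol starts with Kif or Klc and a digit, or with Dync or Dctn. The rule found 48 of 14924 genes: 6 kinesin-1 heavy and light chains, 4 kinesin-2, 6 kinesin-3, 11 mitotic and cytokinetic kinesins, 8 other kinesins, 6 dynein subunits, 6 dynactin subunits, and Kif1bp, which encodes a kinesin-binding protein and not a motor. Of these, 34 had counts in the 3′ end table and 3 were listed with a HuD crosslinking site.

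NSC-34 is an immortal mouse hybrid line with motor neuron-like features, used as a stand-in for motor neurons, and HuD (ELAVL4) is a neuronal RNA-binding protein that recognises U-rich elements. The HuD cells and the controls of CRAC carried the tetracycline repressor (Trex). Whether the controls of the other assays did is not said in the study's methods. HuD cells also carried a lentiviral vector with a CMV/TO promoter for His-HA tagged human HuD whose expression was switched on, per the labels, with tetracycline. The labelled dose was 2 µg/ml over 48 h in RNA-Seq, POL-Seq (RNA from polysomes) and 3′ end sequencing. For CRAC, in which HuD was crosslinked to RNA by UV light, Trex-HuD and control Trex cells both received 10 µg/ml, over 24 h. The study's text names doxycycline in places, also for CRAC with another dose and time, and which agent was used cannot be told from these sources. The controls of the other assays are labelled only as control cells, with no treatment given. Total and polysomal RNA had 2 libraries of each condition, and 3′ ends and CRAC had 3 of each. The study's methods call the replicates of RNA-Seq, POL-Seq and 3′ ends biological, and p-values measure the spread between these libraries.

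Kinesins and cytoplasmic dynein are ATP-driven motors that walk along microtubules. Most kinesins carry cargo toward microtubule plus ends, which in an axon means outward from the cell body. Dynein, joined by the dynactin complex, carries cargo back. Kinesin-1 pairs heavy chains (Kif5a, Kif5b, Kif5c) with light chains (Klc genes) that hold many cargoes, kinesin-2 and kinesin-3 carry vesicles and organelles, and another set of kinesins builds the mitotic spindle or acts in cytokinesis. Motor neurons depend on these motors because of the length of their axons.

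Depth ranged from 21296012 to 36284728 counts per library for total and polysomal RNA, and from 12986862 to 15751036 for 3′ ends. Counts assigned to Elavl4, which can include reads of the human transgene, stood at 78.3 and 97.4 CPM (counts relative to the library's total after TMM scaling) in control and at 237 and 212 CPM in HuD total RNA, without overlap. Their log2 change was 1.35 (SE 0.15, edgeR adjusted p = 0.087), the gene itself thus not passing the threshold of 0.05 over all genes. In polysomal RNA they were 90.3 and 118 CPM in control and 243 and 225 CPM in HuD (1.17, SE 0.15, edgeR adjusted p = 0.28). Ends of the mouse Elavl4 gene need not be shared by the transgene, so they do not check the induction in the 3′ end libraries. They averaged 64.9 ± 22.9 CPM in control and 46.1 ± 12.8 CPM in HuD (SD, n = 3; log2 change -0.49, SE 0.29, edgeR adjusted p = 0.92), and with the replicate number as a block they were called lower in HuD (edgeR adjusted p = 0.031). Of 16 neuronal and motor neuron markers, 14 were in the table, with Mnx1 and Slc5a7 absent from it, Chat at no more than 0.6 CPM and Stmn2 at no more than 0.4 CPM. Isl1, which is present in motor neurons, was at 34.7 to 47.3 CPM, and the neuronal list summed to between 3184 and 3305 CPM in total and between 3442 and 3625 CPM in polysomal RNA. Without Elavl4, its 13 other genes summed to 3138 and 3208 CPM in control and 3046 and 2972 CPM in HuD total RNA, lower in HuD without overlap. In polysomal RNA they summed to 3352 and 3381 CPM in control and 3382 and 3292 CPM in HuD, with overlap, and the part of this in the motor genes' values was not tested. The 3 of 7 glial markers in the table summed to between 14.3 and 18.8 CPM over the libraries.

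Replicate 2 of control polysomal RNA, the library of lowest depth, stood apart for the motor genes. It held the highest CPM of all 8 libraries for 24 of 48 members, or 50.0%, against 27.3% of all genes. It exceeded replicate 1 of its group for 39 of 48 members, including 11 of 11 mitotic kinesins, where the median log2 difference between these replicates was 0.42, and 6 of 6 dynein subunits, where it was 0.25. In control total RNA, replicate 2 was also the higher for 11 of 11 mitotic kinesins, with a median difference of 0.14. Across all genes, replicate 2 was the higher for 49.7% in control polysomes and for 53.1% in control total RNA. Kif11, the spindle motor of kinesin-5, is an example, with 99.1 CPM in replicate 1 and 164 CPM in replicate 2 of control polysomes. The part of depth in this difference was not tested, and results that use control polysomes are given with and without this library.

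Levels between genes were compared as FPKM, the CPM divided by exon length in kilobases, computed from the counts with exon lengths of GENCODE vM21. In total RNA of control cells, dynactin genes were the highest, with a median of 54.9 FPKM over 6 genes. Dctn2, which encodes dynamitin, stood at 123 ± 5.34 FPKM (SD, n = 2), while Dctn1, the large subunit that contacts dynein and microtubules, stood at 14.1 ± 1.46 (SD, n = 2). The dynein subunits ranged from 0.724 FPKM for Dync2h1, the heavy chain of the ciliary dynein-2, to 27.7 ± 2.04 FPKM (SD, n = 2) for the light intermediate chain Dync1li1. Dync1h1, the motor-bearing heavy chain of cytoplasmic dynein, was at 7.92 ± 0.0146 FPKM (SD, n = 2). The median over all 48 members was 10.4 FPKM, against 5.55 FPKM over 14860 genes with a length.

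Among the kinesins, Kif22, a chromosome-binding mitotic kinesin, was the highest at 44.4 ± 1.61 FPKM (SD, n = 2), and Kif6 the lowest at 0.118 FPKM. Kif5c, a neuronal kinesin-1 heavy chain, stood at 33.3 ± 4.28 FPKM (SD, n = 2), and its partner Klc1 at 27.8 ± 2.31 FPKM (SD, n = 2). Of the summed level of the kinesin-1 heavy chains, Kif5c made 50.3% ± 0.498, the ubiquitous Kif5b 28.3% ± 1.57 and the neuronal Kif5a 21.5% ± 2.06 (SD, n = 2). Klc1 made 62.6% ± 2.27 of the light chains Klc1, Klc2 and Klc4 (SD, n = 2). Kif3a, the shared subunit of heterotrimeric kinesin-2, was the highest of its group at 14.7 ± 1.22 FPKM, and Kif1b, a carrier of mitochondria and synaptic vesicle precursors, of kinesin-3 at 11.1 ± 1.93 FPKM (SD, n = 2). Kif1a, which carries synaptic vesicle precursors and dense core vesicles, was at 5.79 ± 0.733 FPKM, Kif26a, a kinesin without motor activity, at 15.3 ± 2.17 FPKM, and Kif1bp at 19.9 ± 0.749 FPKM (SD, n = 2).

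**Figure D1:**
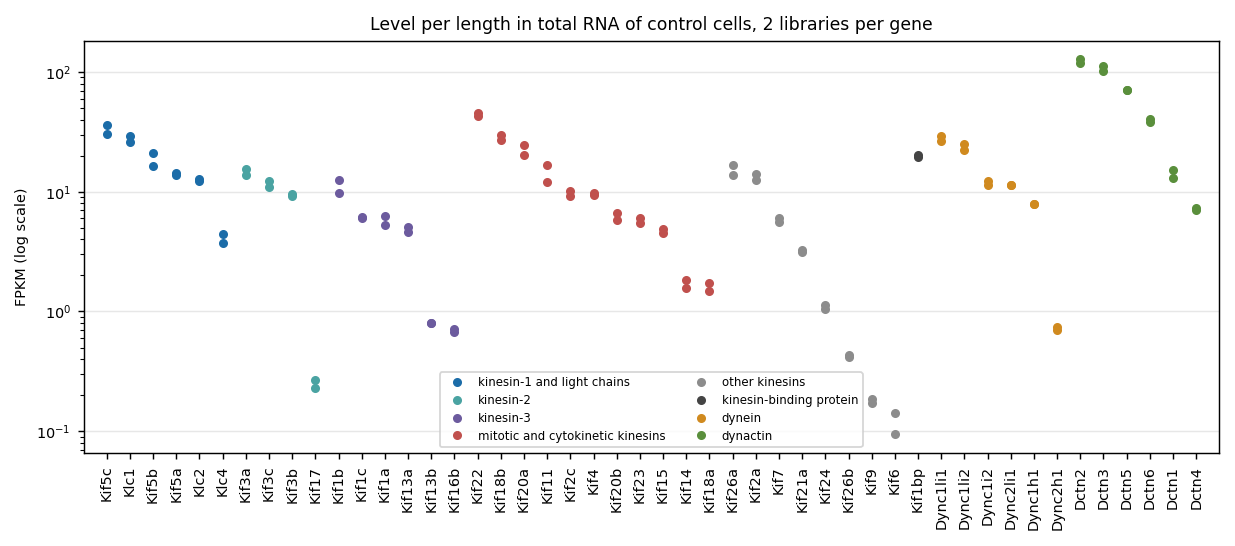
Level of each motor gene in FPKM (log axis) in the 2 total RNA libraries of control cells (points), grouped and coloured by role. Dctn2 was the highest at 123 FPKM and Kif6 the lowest at 0.118 FPKM.

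Induction of HuD changed no motor gene past the threshold in total RNA. With edgeR's quasi-likelihood test and an adjusted p under 0.05, 0 of 48 members and 0.0% of the 14906 genes tested were called. At an unadjusted p under 0.05, 2 members were higher and 0 lower, while 1.78% of all genes were higher and 0.865% lower, and DESeq2 called 0 members. The members' median log2 change was 0.04, beside -0.0039 over all genes. In bulk RNA, fewer cells of a type and less RNA per cell cannot be told apart.

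The members nearest to the threshold were kinesin-1 genes. Kif5a, the neuronal heavy chain, had 97.3 and 100.4 CPM in control and 119 and 122 CPM in HuD total RNA. Klc1 had 106 and 119.6 CPM in control and 130.5 and 134 CPM in HuD. The libraries of the conditions did not overlap for either gene, and the estimates were 0.29 (SE 0.09, unadjusted p = 0.0087) for Kif5a and 0.23 (SE 0.09, unadjusted p = 0.034) for Klc1 on the log2 scale, both with an adjusted p of 1.00 in edgeR. Libraries did not overlap, with HuD higher, for 13 of 48 members (27.1%) against 15.1% of all genes, and with HuD lower for 5 members (10.4%) against 16.8% of all genes. The 13 included Kif5c at 217 and 259.7 CPM in control and 260.1 and 286 CPM in HuD. They also included Kif1b at 172 and 220.1 CPM in control and 232 CPM in both HuD libraries, and Kif3a at 49.8 and 56.0 CPM against 62.5 and 56.9 CPM. For these genes the highest control library lay close to the lowest HuD library, and their estimates were 0.20 (SE 0.14), 0.24 (SE 0.16) and 0.17 (SE 0.12).

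By role, 5 of 6 kinesin-1 genes (median log2 change 0.16), 4 of 4 kinesin-2 genes (0.14) and 5 of 6 dynein subunits (0.07) had estimates above 0 in total RNA, and so did 30 of 48 members against 48.7% of all genes. Dynactin had 4 of 6 above 0 and the mitotic kinesins 4 of 11, or 10 of 11 without replicate 2 of control total RNA and 1 of 11 without replicate 1. On the lower side stood Kif1c, a kinesin-3 (44.5 and 44.1 CPM against 37.9 and 41.1 CPM), Kif24, a centriole kinesin (9.04 and 8.46 against 8.26 and 6.89 CPM), and the dynactin pointed-end subunit Dctn6 (115 and 109.6 against 104 and 107 CPM). None of these had an unadjusted p under 0.05. Kif6 had the largest estimate, 0.66 (SE 0.33), but stood at 0.567 and 0.857 CPM in control and 0.918 and 1.35 CPM in HuD, with as few as 17 reads in a library. Without replicate 1 of control total RNA the members' median fell to -0.02, and without replicate 2 it was 0.09.

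Polysomal RNA gave no call either, with 0 of 48 members and 0.0% of genes at an adjusted p under 0.05 in edgeR. At an unadjusted p under 0.05, 1 member was higher (2.29% of all genes) and 1 lower (1.89% of all genes), and DESeq2 called 0. Klc1 was again the higher gene, at 109 and 119 CPM in control and 134 and 141 CPM in HuD polysomes. Its estimate was 0.27 (SE 0.09, unadjusted p = 0.015, edgeR adjusted p = 0.97), a 1.21-fold difference with no overlap between conditions. Kif5a had 95.3 and 107 CPM in control and 111 and 118 CPM in HuD, again without overlap (0.17, SE 0.09, unadjusted p = 0.077).

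The lower gene was Kif24, at 8.54 and 9.81 CPM in control and 6.91 and 7.09 CPM in HuD polysomes (-0.38, SE 0.14, unadjusted p = 0.021, edgeR adjusted p = 0.97). Kif17, a homodimeric kinesin-2 of dendrites and cilia, had 0.851 and 0.673 CPM in control and 1.21 and 1.00 CPM in HuD, the largest estimate (0.51, SE 0.27), with as few as 14 reads in a library. Dync2h1 had 12.3 and 16.5 CPM in control and 11.9 and 12.1 CPM in HuD (-0.26, SE 0.15). Libraries did not overlap for 5 members with HuD higher (10.4%, against 14.1% of all genes) and for 4 with HuD lower (8.33%, against 14.6%). Estimates lay above 0 for 19 of 48 members (39.6%), against 48.4% of all genes. All 11 mitotic kinesins had estimates below 0, with a median of -0.12, as for Kif22 at 197 and 239.9 CPM in control and 199.8 and 185 CPM in HuD. This rested on replicate 2 of control polysomes: without it 9 of 11 were above 0 and their median was 0.09, and without replicate 1 it was -0.32. The median over all members likewise went from -0.03 to 0.08 without replicate 2 and to -0.10 without replicate 1.

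**Figure D2:**
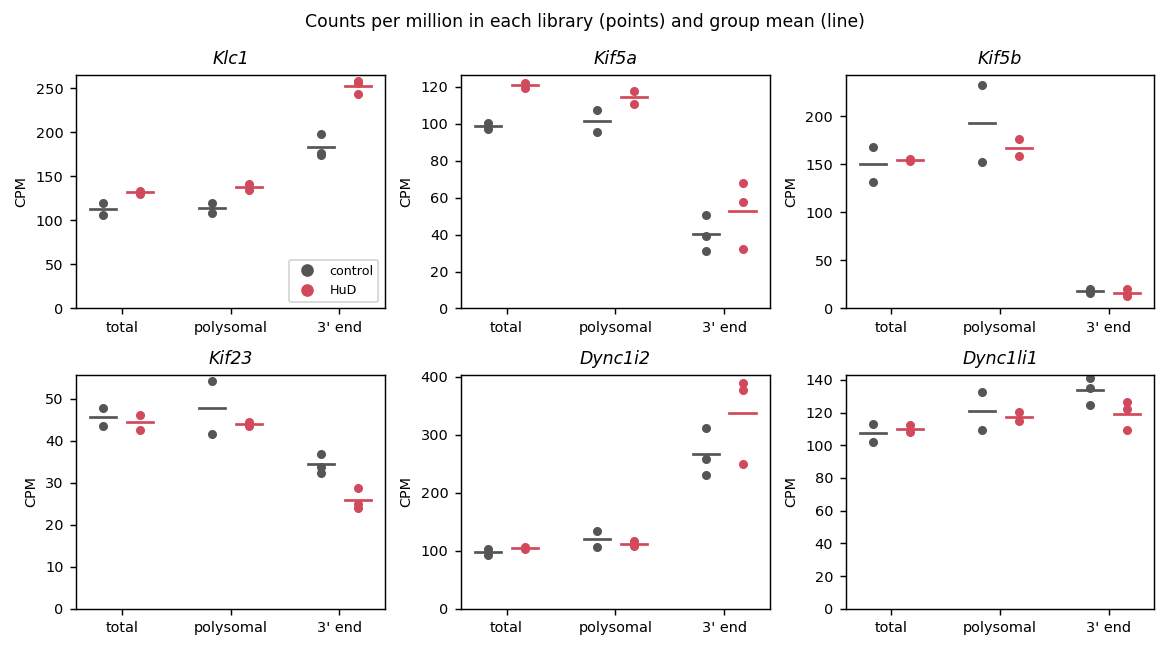
CPM in each library (points) with the group mean (line) for 6 motor genes in total RNA, polysomal RNA and 3′ end counts, control in grey and HuD in red. Klc1 was higher in every HuD library of the 3 assays, and the Kif5b libraries overlapped in each. The summed 3′ end CPM of Klc1 and Dync1i2 counted reads shared by positions within 20 nt more than once.

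**Figure D3:**
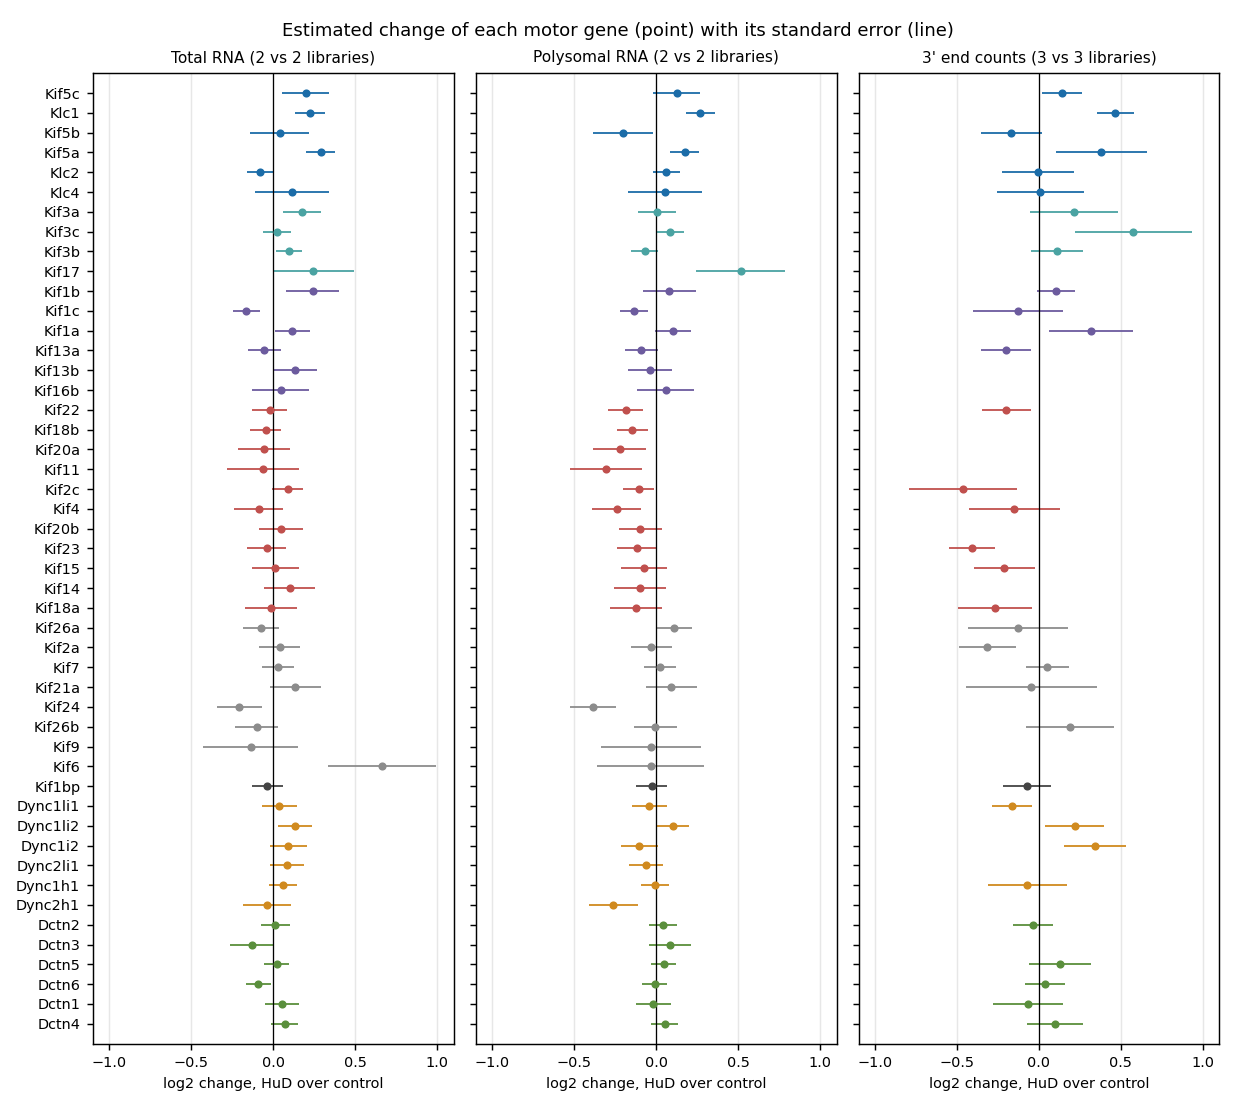
Log2 change of each motor gene, HuD over control (point), with its standard error (line), in total RNA, polysomal RNA and 3′ end counts, genes ordered by role. No estimate passed the adjusted threshold without the replicate block, and the 11 mitotic kinesins (red) lay below 0 in polysomal RNA, where 9 of 11 lay above 0 once replicate 2 of the controls was left out.

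Translation efficiency (TE) was taken as the ratio of polysomal to total RNA. In control cells the polysomal share of 0 of 48 members differed from that of the average gene at an adjusted p under 0.05 in edgeR, where 0.174% of genes were called, and DESeq2 called 0 members too. At an unadjusted p under 0.05, 2 members were higher in polysomes (4.45% of all genes) and 0 lower (6.25%). These were Kif20b, a cytokinesis kinesin, with a log2 ratio of 0.25 and 0.48 in the replicates (0.38, SE 0.13, edgeR adjusted p = 0.46), and the dynein intermediate chain Dync1i2, with 0.19 and 0.40 (0.30, SE 0.11, edgeR adjusted p = 0.46). Replicates are matched here by number only. Dync2li1, a dynein-2 subunit, followed at 0.21 (SE 0.10), and 6 of 6 dynein subunits had estimates above 0, with a median of 0.19, or 0.05 without replicate 2 of control polysomes.

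On the lower side, Klc2, a second light chain, had log2 ratios of -0.13 and -0.15 (-0.15, SE 0.08), Kif17 an estimate of -0.56 (SE 0.27), and Kif26a of -0.11 (SE 0.11). Over the members, 38 of 48 (79.2%) had estimates above 0, against 51.7% of all genes, and the median was 0.10. Libraries did not overlap for 10 members with polysomes higher (20.8%, against 18.9% of genes) and for 5 with polysomes lower (10.4%, against 20.1%). The median was 0.17 without replicate 1 of control polysomes and -0.02 without replicate 2, so its sign was decided by 1 library. Without replicate 1, 9 members were called (Dync1i2, Dync2h1, Kif11, Kif1b, Kif20b, Kif2a, Kif3a, Kif5b and Kif5c), but so were 14.4% of all genes. Without replicate 2 no member was called, and 0.181% of all genes were.

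**Figure D4:**
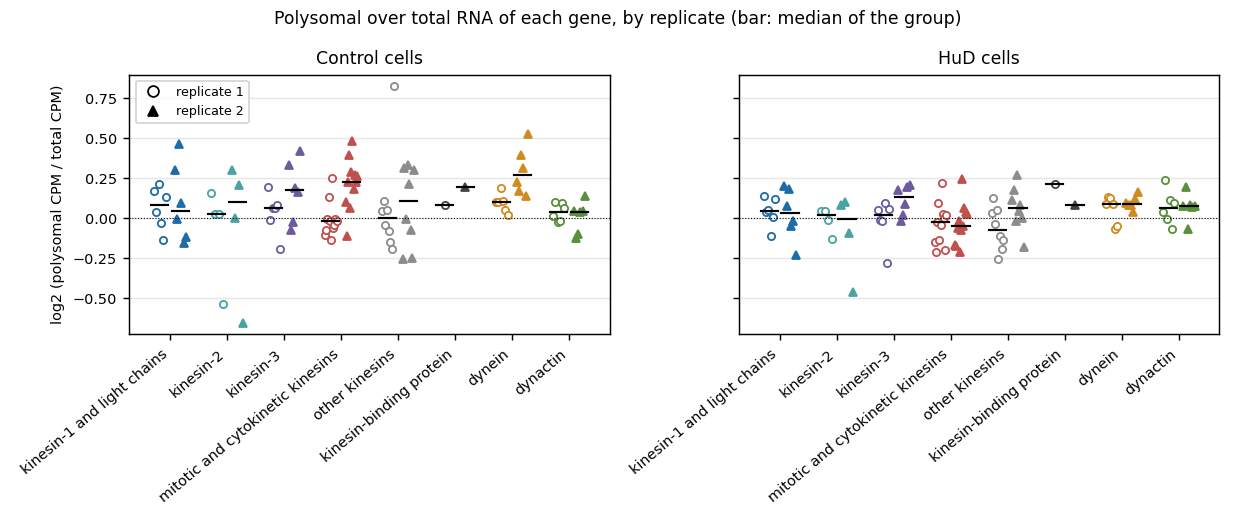
Log2 ratio of polysomal to total CPM of each motor gene in control (left) and HuD cells (right), by role, with replicate 1 as open circles and replicate 2 as filled triangles and the group median as a bar. In control cells the mitotic and dynein genes lay higher in replicate 2 than in replicate 1. In HuD cells the replicates lay closer for genes such as Kif11 and Dync2h1, but not for Dync1h1 or Kif14.

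The change in TE with HuD was read from the interaction term between fraction and condition in the fit of 8 libraries. No member was called at an adjusted p under 0.05 (0.0% of genes in edgeR and 0 members in DESeq2). At an unadjusted p under 0.05 there were 0 members in either direction, against 0.409% of genes higher and 0.57% lower. The members' median was -0.07 with all libraries, -0.20 without replicate 1 of control polysomes and 0.07 without replicate 2. Ratios of same-numbered libraries did not overlap for 7 members with HuD higher (14.6%, against 18.6% of genes) and for 15 with HuD lower (31.2%, against 19.9%). With all libraries, estimates lay above 0 for 14 of 48 members (29.2%), against 48.2% of all genes. Below 0 lay 11 of 11 mitotic kinesins and 6 of 6 dynein subunits. Without replicate 2 of control polysomes, 32 of 48 members lay above 0, among them 8 of 11 mitotic kinesins and 2 of 6 dynein subunits. The dynein median then went from -0.11 to -0.0073.

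The genes with the smallest p on the higher side were Klc2 (0.14, SE 0.11), Kif26a (0.19, SE 0.16) and Dctn3, a dynactin shoulder subunit (0.22, SE 0.18). Dctn3 had log2 ratios of 0.10 and -0.13 in control and of 0.24 and 0.19 in HuD. On the lower side they were Kif3b, the partner of Kif3a (-0.17, SE 0.11), Kif6 (-0.69, SE 0.47) and the microtubule depolymerase Kif2c (-0.19, SE 0.13). Klc1, which was higher in both fractions, had an estimate of 0.04 (SE 0.13).

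In the 3′ end libraries, which read the last bases of polyadenylated mRNAs, 34 members had counts. Positions within 20 nt share reads, so summed 3′ end CPM counted some reads more than once for genes with such positions, Klc1 among them. Klc1 had 198, 177 and 174 CPM in control and 256, 244 and 258 CPM in the libraries labelled HuD. The conditions did not overlap, and every HuD library exceeded the highest control library. The estimate on these sums was 0.46 (SE 0.11), a 1.38-fold difference, with an unadjusted p of 0.0025 and an edgeR adjusted p of 0.40. With positions within 20 nt merged, the nearer Klc1 end had 77.9, 79.7 and 72.2 CPM in control and 118, 125 and 116 CPM in HuD. The farther end had 39.0, 29.2 and 34.0 CPM in control and 43.7, 31.8 and 46.8 CPM in HuD. Same-numbered 3′ end libraries deviated together, and with the replicate number as a block the edgeR adjusted p of Klc1 was 0.013. Over all alternatives its adjusted p ranged from 0.0052 to 1.00, with an estimate between 0.43 and 0.53 when single libraries were left out.

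Without the block, 0 of 34 members were called by edgeR (0.052% of 9621 genes) and 0 by DESeq2, and at an unadjusted p under 0.05, 1 was higher (2.87% of genes) and 1 lower (3.0%). With the block, 1 member was called, Klc1, against 2.26% of genes, and at an unadjusted p under 0.05, 4 were higher (8.64% of genes) and 4 lower (10.1%). Conditions did not overlap for 2 members with HuD higher, Klc1 and Kif1b (5.88%, against 6.23% of genes), and for 2 with HuD lower, Kif23 and Kif2a (5.88%, against 5.81%). The members' share of calls was thus near that of all genes. The lower member without the block was Kif23, a cytokinesis kinesin of the central spindle, with 32.4, 33.7 and 36.9 CPM in control and 23.9, 28.8 and 24.9 CPM in HuD. Its libraries did not overlap (-0.41, SE 0.14, edgeR adjusted p = 0.70, with the block 0.069), but its total RNA did (43.4 and 47.8 CPM against 42.6 and 46.1 CPM).

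Other members near the top were Dync1i2, with 258, 232 and 312 CPM in control and 389, 249.6 and 377 CPM in HuD (0.34, SE 0.19), and Kif3c, with 0.8 to 1.46 CPM in control and 1.17 to 2.39 CPM in HuD (0.58, SE 0.35). The Dync1i2 sums counted reads shared by 5 positions within 20 nt more than once. With these merged, its main end had 77.5, 70.1 and 93.2 CPM in control and 117, 74.0 and 113 CPM in HuD. Kif2a, a depolymerase of axon branches, had 12.1, 12.2 and 11.04 CPM in control and 8.54, 10.9 and 8.96 CPM in HuD (-0.31, SE 0.17). Kif2c had 4.92, 8.58 and 6.47 CPM in control and 4.01, 7.2 and 3.25 CPM in HuD (-0.46, SE 0.33). The Kif2a libraries did not overlap, whereas those of Dync1i2, Kif3c and Kif2c did. All 6 measured mitotic kinesins had estimates below 0, with a median of -0.24, and without replicate 1 of the HuD libraries 1 of the 6 was above 0. Over the members, 16 of 34 had estimates above 0, against 50.1% of all genes. Their median was -0.02, beside 0.00025 over all genes, and 0.09 without replicate 1 of the controls.

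Dync1h1, Dctn1, Dctn2, Kif1a and Kif1bp had estimates between -0.04 and 0.12 in total RNA. Over all 6 dynein subunits the estimates ran from -0.04 to 0.13, and over all 6 dynactin subunits from -0.13 to 0.07. Dync1h1 had 124 CPM in both control and 130.3 and 128 CPM in HuD total RNA (0.06, SE 0.09), and 129 and 137 CPM against 125 and 139 CPM in polysomes (-0.01, SE 0.09). Dctn1 had 84.9 and 98.3 CPM against 101 and 89.1 CPM in total RNA (0.05, SE 0.10). Dctn2 had 609.6 and 573 CPM against 609 and 585 CPM (0.01, SE 0.09). Kif1a, with 49.2 and 58.9 CPM in control and 56.5 and 60.6 CPM in HuD, overlapped (0.12, SE 0.11), as did Kif1bp at 99.8 and 94.6 against 97.6 and 91.6 CPM (-0.04, SE 0.09). Dctn1 and Dctn2 overlapped in total RNA too, while Dync1h1 did not there, with HuD higher.

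The use of alternative 3′ ends was compared within genes for the 12 members with more than 1 listed position. Only 8 of them had ends more than 20 nt apart. Dctn1, Dctn6, Kif7 and Klc2 had positions that share reads, so their tests could hardly show a change. Of 3317 genes with several positions, 1434 remained once positions within 20 nt were merged. None of the 12 was called by edgeR's exon-usage test with Simes' method (0.0301% of 3317 genes at an adjusted p under 0.05). An unadjusted p under 0.05 was found for 0 of the 12 (0.151% of genes), while with the block 1 of the 12, Kif1b, had one (0.995% of genes). Kif1b came nearest. Its gene (mouse GRCm38, chr4:149176319-149307693, minus strand) ends in 3 listed places. An early end belongs to a transcript that codes for 1150 amino acids, the length of the short form KIF1Bα, known as a carrier of mitochondria, and the last end to a transcript for 1816 amino acids, the length of the long form KIF1Bβ, known as a carrier of synaptic vesicle precursors. The last 30 nt of each are printed in the sense of the mRNA, because they are the sites at which these forms were counted, with the polyadenylation signal AATAAA in capitals. They lie at chr4:149233734-149233763 and chr4:149176319-149176348.
Kif1b short-form end: tattaaagaAATAAAatcttcctgaaataa
Kif1b long-form end: aaatAATAAAggtacaaccagtgcatcaca

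The short-form end of Kif1b took 29.9, 32.3 and 30.8% of the gene's 3′ end reads in control and 18.9, 24.3 and 20.4% in the libraries labelled HuD. The conditions did not overlap, with means of 31.0% ± 1.2 and 21.2% ± 2.79 (SD, n = 3). Behind these shares were 300, 280 and 283 reads at the short-form end in control and 166, 237 and 204 reads in HuD. The long-form end took 63.9% ± 2.88 in control and 73.3% ± 2.51 in HuD (SD, n = 3). Over the gene, Simes' method in edgeR gave an unadjusted p of 0.054 and an adjusted p of 1.00, and with the block 0.0025 and 1.00. After positions within 20 nt were merged, the edgeR adjusted p was 1.00 without and 0.36 with the block, where 0 of 8 members were called (0.0697% of genes) and 2, Kif1b and Klc1, had an unadjusted p under 0.05 (2.86% of genes). The summed 3′ end counts of Kif1b stood at 63.3, 63.0 and 58.3 CPM in control and 65.1, 66.8 and 66.3 CPM in HuD (0.10, SE 0.12).

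Klc1 (chr12:111758849-111807844, plus strand) was counted at a pair of places 11814 nt apart that belong to transcripts coding for 560 and 608 amino acids. The nearer end took 66.6, 73.1 and 68.0% of its reads in control and 73.0, 79.7 and 71.3% in HuD, so the conditions overlapped (69.3% ± 3.43 and 74.7% ± 4.4, SD, n = 3). In reads, the nearer end had 1231, 1095 and 1144 in control and 1591, 1809 and 1756 in HuD, without overlap. The farther end had 616, 402 and 539 in control and 588, 462 and 706 in HuD, with overlap. The usage test gave an unadjusted p of 0.35, and 0.066 with the block (edgeR adjusted p = 1.00 in both). The ends, at chr12:111794868-111794897 and chr12:111806682-111806711, carry AATAAA and its common variant ATTAAA, in capitals.
Klc1 nearer end: tctaacttctAATAAActcactccaactga
Klc1 farther end: aaaaaaaATTAAAagtttatatgccatacc

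Kif5b was counted at 3 places. The first, of a shorter transcript, took 51.0% ± 4.32 of reads in control and 58.6% ± 1.84 in HuD, and the last, of the full-length mRNA, took 24.8% ± 3.78 and 19.2% ± 3.89 (SD, n = 3). The conditions did not overlap at the first end and overlapped at the last, and the unadjusted p of the gene in edgeR was 0.55. For Kif5b as for Kif1b, the share of all ends without such overlap is not given here. Neither the first nor the last end had AATAAA or ATTAAA in its last 40 nt. The middle end had AATAAA and belongs to a transcript with a retained intron. Across the 44 merged ends of the members, 39 matched a transcript end of GENCODE vM21. Of these, 71.8% had AATAAA and a further 12.8% only ATTAAA in the last 40 nt of the sense strand. Over the 12847 matched positions of the whole table, which were not merged, the shares were 66.7% and 14.8%, so the units differ.

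**Figure D5:**
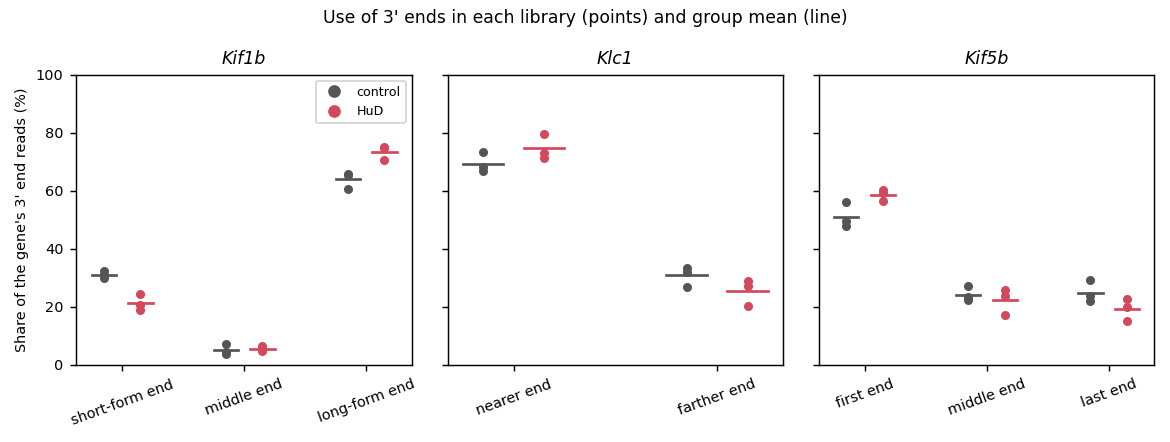
Share of a gene's 3′ end reads at each of its ends in percent, in 3 control (grey) and 3 HuD (red) libraries (points) with the mean (line), for Kif1b, Klc1 and Kif5b. The short-form end of Kif1b lay between 29.9 and 32.3% in control and between 18.9 and 24.3% in HuD, and no gene passed the adjusted threshold.

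HuD crosslinking sites were listed for 3 of 48 members (6.25%), against 8.95% of the 14924 genes. CRAC marks the crosslinked base through deletions left by reverse transcription, and the table holds windows with at least 6 reads and 3 deletions, pooled over the HuD libraries, so values have no replicate error, and library depth is unknown. The members were Kif5b, Dctn4 and Dync1li1, that is a kinesin-1 heavy chain, a pointed-end subunit of dynactin and a light intermediate chain of dynein, which links the motor to its adaptors. Each had 1 window of 7 nt in the 3′ UTR, without a covering read in control, as had 8.82% of all genes. The window of Dync1li1 is printed with 11 nt on each side (chr9:114723483-114723511, plus strand), as an example that need not be typical. Its 7 bases, in capitals, lie 131 nt after the coding sequence and 802 nt before the transcript's end.
Dync1li1 window: uguccuuauguCCUUUUUuuuuuuuuuuu

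The Dync1li1 window, a pyrimidine run, had 18 reads and 3 deletions, with a score of 0.94 against the authors' positional weight matrix and an unadjusted combined p-value of 0.313 in the table. Both the score and the p-value were the highest of the 3 windows. The same 7 bases occur 2 times in this transcript, and the copy 1 nt downstream of the listed interval was taken. The Kif5b window had 33 reads and 3 deletions with a combined p-value of 0.247 and a score of 0.83, and lay 183 nt before the end of the full-length transcript. Its 7 bases also occur 2 times there, and the copy 2 nt downstream of the listed interval was taken. The Dctn4 window had 7 reads and 7 deletions with a combined p-value of 0.145 and a score of 0.85, and lay 564 nt after the coding sequence. The median window on a protein coding gene had 26 reads and 5 deletions. None of the 3 passed a combined p under 0.05 (2.06% of genes have such a site) or held at least 10 reads with at least 5 deletions (4.6% of genes).

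The 3 listed members showed no call in any assay. Kif5b had 132 and 169 CPM in control and 153 and 155 CPM in HuD total RNA, and 153 and 233 CPM against 159 and 176 CPM in polysomes. HuD libraries lay within the span of the controls in both fractions. Its log2 ratio of polysomal to total RNA was 0.21 and 0.46 in control and 0.05 and 0.18 in HuD, and the change in TE was -0.24 (SE 0.26), or 0.10 without replicate 2 of control polysomes. Dync1li1 had 102 and 113 CPM against 108 and 112 CPM in total RNA and 109 and 132 CPM against 115 and 120.1 CPM in polysomes, with a change in TE of -0.08 (SE 0.15), or 0.07 without that library. Dctn4 had 81.1 and 85.4 CPM against 86.4 and 88.3 CPM in total RNA and 84.8 and 94.1 CPM against 92.2 and 93.2 CPM in polysomes, with a change of -0.02 (SE 0.12), or 0.06 without it. In all 3 the sign of the change in TE turned without replicate 2 of control polysomes, and for Dctn4 also without replicate 1 of control total RNA (0.02). The paper reports a significant TE increase with HuD for selected target mRNAs, with Kif5b among the greater ones and polysomal occupancy as the driver. For single targets its methods describe RT-qPCR and targeted sequencing, each with 3 biological replicates. Its main text does not name the assay of this increase, so assay and replicates may differ from those here. With 2 libraries of each condition and a sign that turned in this way, the Kif5b estimate here cannot decide on that increase.

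Beside the motors, 58 subunits, regulators and adaptors outside the name rule were read, such as the dynein light chains, the regulator Pafah1b1 and the adaptors of the Bicd, Hook and Trak families. Of these, 55 were tested in total and polysomal RNA and 46 in 3′ ends, and 0 were called by edgeR without the block or by DESeq2 in any comparison. At an unadjusted p under 0.05, 2 were higher and 0 lower in total RNA (1.78% and 0.865% of all genes), and 4 were higher and 0 lower in polysomes (2.29% and 1.89% of all genes). Both genes of total RNA, Mapk8ip3, a kinesin-1 and dynein adaptor (0.23, SE 0.10), and Arl8a, a small GTPase that joins lysosomes to kinesin (0.19, SE 0.08), were also among the 4 in polysomes (0.32, SE 0.10 and 0.27, SE 0.08), with the dynein light chains Dynll2 (0.36, SE 0.13) and Dynlt3 (0.27, SE 0.11). In control cells 6 were higher and 1 lower in polysomes (4.45% and 6.25% of all genes), and in 3′ ends 1 was higher and 1 lower with HuD (2.87% and 3.0%). In TE 0 passed that threshold in either direction (0.409% and 0.57%). With the block, 1 of 46 was called in 3′ ends, beside 2.26% of all genes. This was Dynlt3, at 39.4, 24.9 and 47.1 CPM in control and 56.6, 32.3 and 71.8 CPM in HuD (0.51, SE 0.10, edgeR adjusted p = 0.024). Its conditions overlapped, with HuD higher within each of the 3 replicate numbers. HuD sites were listed for 12 of the 58, beside 8.95% of all genes, with 4 of the 12 sharing the same windows. The light chains Dynll1 (windows of 156 and 98 reads) and Dynll2 (80, 50 and 42 reads) had more reads than any window of the 48 motor genes. The 12 include the near-identical copies Dynlt1a, Dynlt1b, Dynlt1c and Dynlt1f, whose windows carry the same counts of 40 and 26 reads and cannot be told apart.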

How the data were processed

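For total and polysomal RNA, the authors deposited unnormalised counts of reads per gene (STAR 2.5.3a, GRCm38, Gencode M6). For 3′ ends, they deposited counts of reads that start within 10 nt of an annotated polyadenylation site. Each transcript has its own line, so ends within 20 nt share reads. Unique positions were summed per gene, so reads shared by positions within 20 nt were counted more than once in these sums. For CRAC, the authors deposited pooled coverage (a signal in reads) and counts of deletions per site, an unadjusted p-value and a score against their weight matrix.

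The test of counts was edgeR 4.0.16 under R 4.3.3 (TMM, filterByExpr, quasi-likelihood test, Benjamini-Hochberg adjustment over all genes at 0.05). All 8 libraries shared a fit with 4 group means. TE was the interaction, and site usage was tested with diffSpliceDGE. DESeq2 1.42.0, RLE scaling, no filter, a replicate block and leaving out each library were alternatives. CPM used TMM library sizes. Same-numbered 3′ end libraries were taken as paired, from their labels' numbers and correlations of deviations of 0.40, 0.66 and 0.52. Depth limited few members, since all 48 passed the filter. The procedures were tested on simulated data. Figures used Python 3.11.15 and matplotlib 3.10.9.

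Named genes were those with a CRAC site, the 3 with the smallest p per direction and comparison, the highest of each role, and core subunits. Further genes were named after their values were seen: Kif11, genes listed in counts, and those outside the 48. Members, lists and rules were chosen with earlier results of these data known.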

Additional observations from a re-analysis of the deposited data

How the results depend on the processing

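The count of motor genes called was 0 in each comparison and stayed 0 under RLE scaling, DESeq2 and no filter. With the replicate block, 1 member was called in 3′ end counts, and also 1 with the block once ends within 20 nt were merged, which was added after the data had been seen. At an unadjusted p under 0.05 in edgeR, the block gave 5 members higher and 0 lower in total RNA (3.58% and 2.58% of genes). In polysomal RNA there were 2 and 2 (4.31% and 4.98%), and in polysomal against total RNA of control 6 and 1 (10.7% and 9.92%). Deviations of same-numbered total and polysomal libraries correlated between 0.19 and 0.39, though only their numbers pair them in the labels. At the adjusted threshold the block changed no count but that of 3′ ends. Leaving out single libraries gave 0 to 9 members for polysomal against total RNA in control and 0 to 0 in the others, and the lone library left is then assumed to vary like the other groups. Members with a CRAC site went from 3 to 0 at a combined p under 0.05 and to 0 with at least 10 reads and 5 deletions, and stayed at 3 without control reads. Of 64 median values under alternatives, 4 moved by more than the spread between replicates. Over the fits without single libraries, the change in TE ranged from -0.092 to 0.063 for Dctn4, from -0.21 to 0.068 for Dync1li1 and from -0.51 to 0.096 for Kif5b, and the polysomal ratio of Kif26a from -0.25 to 0.040. The values above 0 came without replicate 2 of control polysomes for the changes in TE, for Dctn4 also without replicate 1 of control total RNA (0.019), and without replicate 2 of control total RNA for Kif26a. The cause of these shifts was not tested. Depth limited Kif6 and Kif17, whose lowest counts per library were 17 and 14.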
